A study of Mus musculus with 6 samples.

Results

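Astrocytes carry a recognisable set of transcripts, and 10 of them were read in brain RNA-seq from 3 *AP1AR-DT* OE mice and 3 control mice. The genes were *Sox9*, *Aqp4*, *S100b*, *Aldh1l1*, *Gja1*, *Slc1a2*, *Slc1a3* and *Glul*, which mark astrocytes at rest, with *Gfap* and *Vim*, which are used as signs of astrocyte reactivity. They were taken by gene symbol from the 52390 genes listed, and all 10 were among the 21844 genes with enough counts to be tested. All mice were wild-type C57BL/6 males that had a recombinant adeno-associated virus injected into the medial prefrontal cortex (mPFC) when 8 weeks old. In the *AP1AR-DT* OE mice (AC109347.1 in the labels) the virus carried the human lncRNA *AP1AR-DT* behind a neuronal promoter, that of human synapsin I. The control mice received the empty vector, so every library came from an injected brain and no uninjected brain was analysed here. The vector described for the study also holds EGFP behind a CMV promoter. The labels give the tissue as brain, while the study's text gives the mPFC in one place and cortical tissue in another.

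Astrocytes clear glutamate and potassium from around synapses, couple to each other through gap junctions, and wrap blood vessels with endfeet rich in water channels. After injury, infection or the injection of a virus they can become reactive, a state in which intermediate filament genes such as *Gfap* and *Vim* are transcribed more strongly. The comparison asks whether these transcripts differed in bulk tissue between mice that carried the lncRNA and mice that carried the empty virus. It does not separate astrocytes near transduced neurons from other astrocytes in the tissue.

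No gain of the reactivity genes was detected in the *AP1AR-DT* OE mice. The 2 genes lower past unadjusted thresholds were *Sox9* and *Aqp4*, neither with an edgeR adjusted *P* under 0.05. The log2 fold changes (Log2FC, *AP1AR-DT* OE against control) of *Gfap* and *Vim* were -0.09 ± 0.31 (SE) and -0.10 ± 0.17 (SE), both smaller than their errors. *Sox9* had a Log2FC of -0.43 ± 0.12 (SE) and *Aqp4* one of -0.60 ± 0.25 (SE). These were the 2 of 10 astrocyte genes past the study's thresholds for differentially expressed genes (DEGs), which are *P* under 0.05 and |Log2FC| above 0.32. Among all genes tested, 12.2% were past the same thresholds, 7.15% on the lower side and 5.1% on the higher side. None of the 10 had an adjusted *P* under 0.05 in edgeR (0.0275% of all genes had one). An unadjusted edgeR *P* under 0.05 was held by 3 of the 10, beside 3304 of the 21844 genes tested. DESeq2 and limma-voom also gave an adjusted *P* under 0.05 to 0 of the 10. The Log2FC was below 0 for 9 of the 10 genes, beside 11260 of the 21844 genes tested. Their median was -0.11, beside -0.01 over all genes tested. The groups did not overlap for *Sox9*, *Aqp4* and *S100b*, and 22.4% of all genes had groups that did not overlap. In bulk tissue, fewer astrocytes and less RNA per astrocyte cannot be told apart. The libraries also differed in markers of other cells and regions, as given below, and the part of this in the Log2FC of the 10 genes was not tested.

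**Figure D1:**
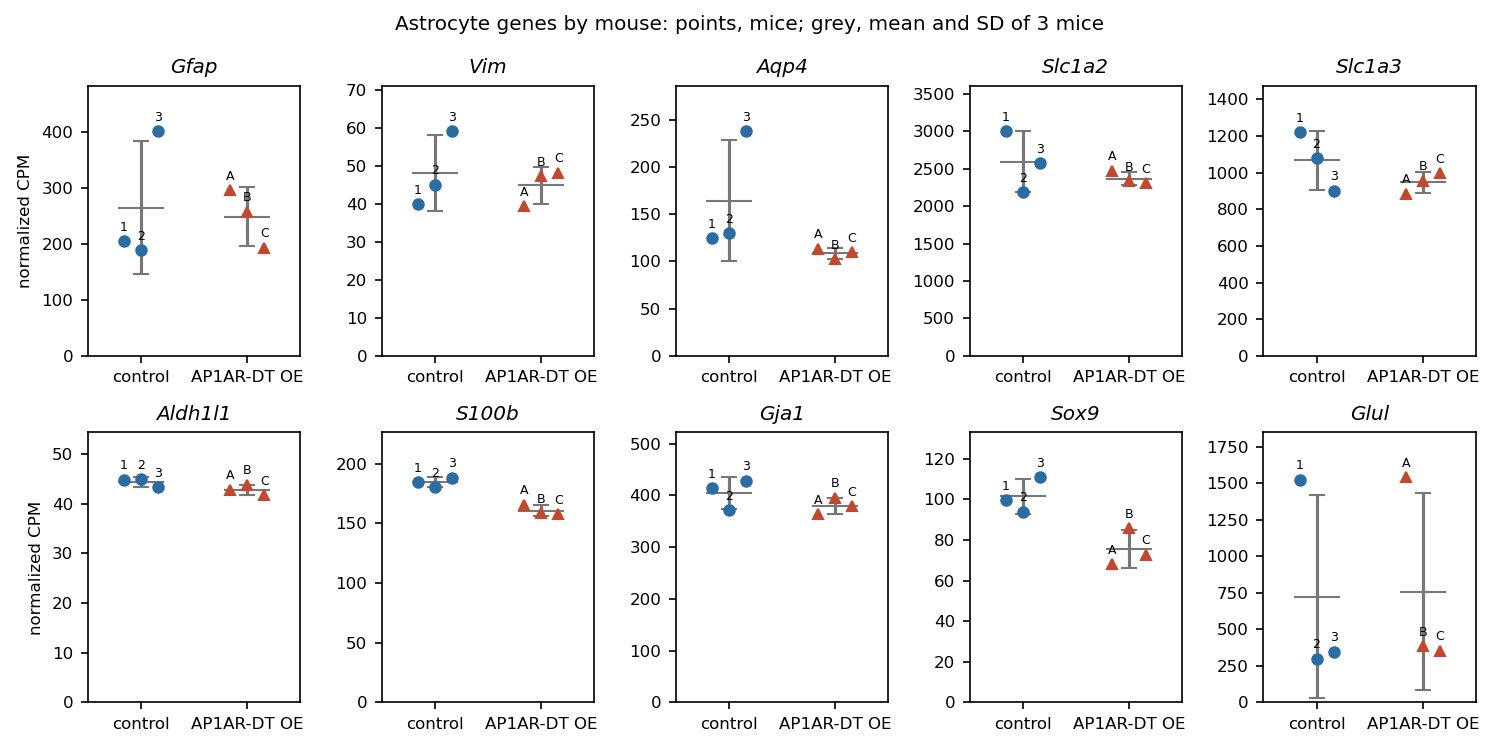
Normalized CPM (counts put on one scale across libraries with TMM factors; linear axis from 0) of the 10 astrocyte genes in each mouse, with control mice 1 to 3 as circles, *AP1AR-DT* OE mice A to C as triangles, and the mean and SD of 3 mice in grey. The 3 *AP1AR-DT* OE mice lie under all 3 control mice for *Aqp4*, *S100b* and *Sox9*, control 3 stands above the other mice for *Gfap* and *Aqp4*, and *Glul* is near 1500 in control 1 and *AP1AR-DT* OE A alone.

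The libraries held 42061721 to 54668294 counts, and the astrocyte genes 1621 (*Vim* in control 1) to 130960 (*Slc1a2* in *AP1AR-DT* OE A), so that the square-root counting error was at most 2.48% of a value. Compared per kilobase of the longest transcript, the medians over the 6 mice ran from 220.4 normalized CPM per kb for *Slc1a3*, 207 for *Slc1a2*, 132 for *Glul*, 117 for *S100b*, 99.5 for *Gja1* and 87.3 for *Gfap* down to 23.5 for *Aqp4*, 21.7 for *Sox9*, 15.8 for *Vim* and 10.4 for *Aldh1l1*. The order was therefore led by the glutamate transporters, which astrocytes make in large amounts. The ranges over mice of *Slc1a3* and *Slc1a2* overlapped, as did those of *Aqp4* and *Sox9* and those of *Sox9* and *Vim*. In the middle of the order, the range of *Gfap* (71.2 to 152 per kb) covered those of *S100b* and *Gja1*, which overlapped each other, and that of *Glul* (108 to 552 per kb) overlapped all 5 others from *Gfap* up.

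The libraries were not alike in markers of other cells and regions. All 8 choroid plexus markers were highest in control 3, with summed levels of 66.8 to 3964 normalized CPM in controls and 51.8 to 72.8 in *AP1AR-DT* OE mice. The defining marker *Ttr*, the transthyretin gene, had 171238 counts in control 3 and 56 to 257 in the other libraries, and *Slc4a5* was at 0 in 4 libraries. Control 3 was also highest for all 7 oligodendrocyte markers (5176 to 10924 in controls, 5225 to 5303 in *AP1AR-DT* OE) and for all 6 ependymal markers (67.3 to 127 in controls, 40.3 to 77.8 in *AP1AR-DT* OE). Control 1 and *AP1AR-DT* OE A were the highest pair for all 6 striatal neuron markers (179 to 830.5 in controls, 537 to 1531 in *AP1AR-DT* OE). Hypothalamic and thalamic neuron markers summed to 108 to 684 in controls and 79.4 to 149 in *AP1AR-DT* OE mice, and were highest in controls 2 and 3. Excitatory neuron markers summed to 1178 to 2153 in controls and to 1657 to 2842 in *AP1AR-DT* OE mice, and inhibitory ones to 1011 to 2035 and to 1823 to 2085. Most of the excitatory sum was *Camk2a*. The cortical marker *Slc17a7*, a vesicular glutamate transporter gene, was at 28.2, 3.86 and 233 normalized CPM in controls 1, 2 and 3. In *AP1AR-DT* OE mice A, B and C it was at 231, 463 and 87.2. *Slc17a6*, another such gene of the same list, was at 22.5, 80.8 and 216 in controls 1, 2 and 3. In *AP1AR-DT* OE mice A, B and C *Slc17a6* was at 16.9, 14.9 and 26.2. The remaining lists overlapped between the groups, except for endothelial and pericyte markers (107 to 119.7 in controls, 122 to 162 in *AP1AR-DT* OE). These were microglia (276 to 333 in controls, 282 to 392 in *AP1AR-DT* OE), oligodendrocyte precursor (511 to 672 and 535 to 588) and meningeal fibroblast markers (21.7 to 256 and 41.0 to 80.9). Their part in the astrocyte values was not tested.

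**Figure D2:**
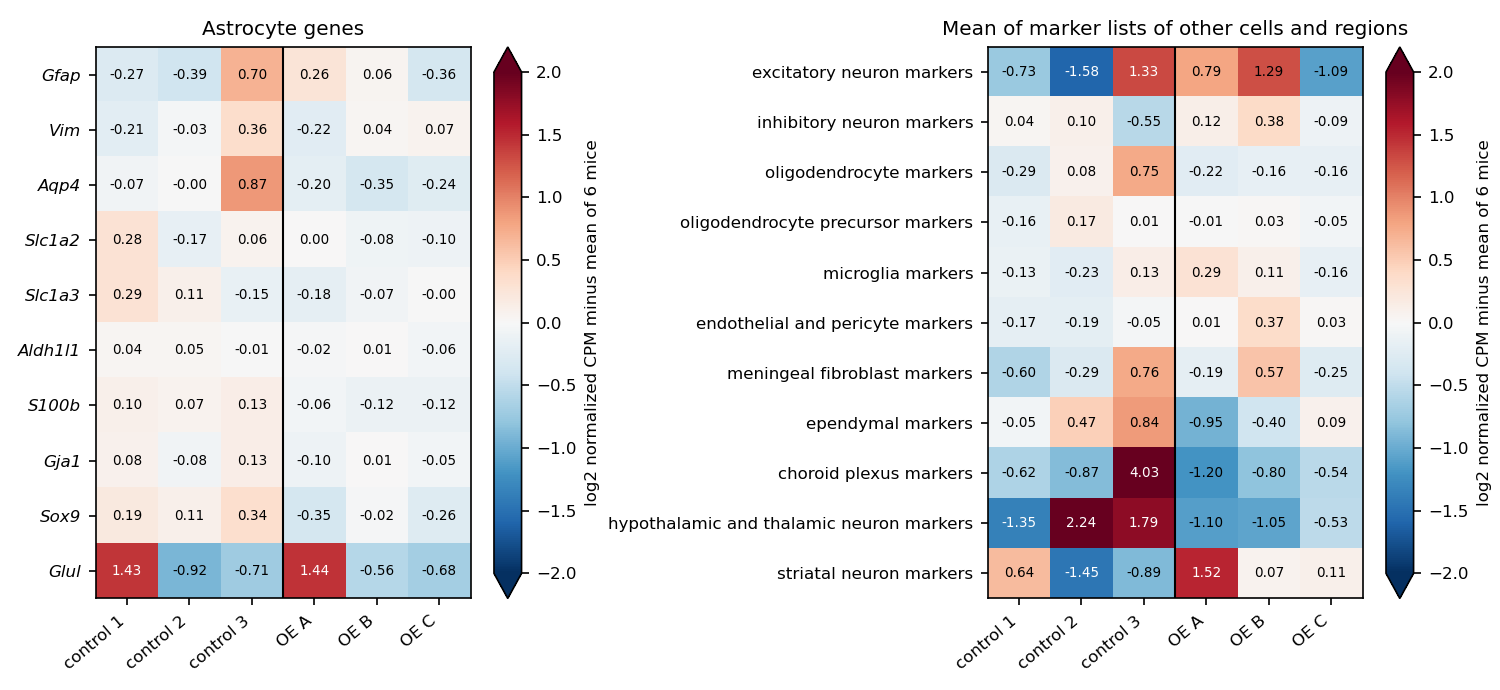
Heat maps of log2 normalized CPM minus the mean of the 6 mice, for the 10 astrocyte genes (left) and for the mean of each marker list of other cells and regions (right), with mice in columns and a black line between control and *AP1AR-DT* OE mice; colours saturate at 2 in either direction. Control 3 stands out for *Gfap* (0.70), *Aqp4* (0.87) and choroid plexus markers (4.03), and *Glul* stands out in control 1 (1.43) and *AP1AR-DT* OE A (1.44).

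*Sox9* (ENSMUSG00000000567, chr11:112782224-112787760, plus strand) encodes the transcription factor that turns neural progenitors towards glia and stays on in adult astrocytes. It was at 99.7, 94.0 and 111 normalized CPM in controls 1, 2 and 3 and at 68.1, 85.8 and 72.7 in *AP1AR-DT* OE mice A, B and C. Every *AP1AR-DT* OE mouse was below every control mouse, and mouse B came closest to the controls. The means were 102 ± 8.55 (SD, 3 mice) and 75.6 ± 9.16 (SD, 3 mice). The ratio was 0.744 (95% interval 0.614 to 0.903), with an edgeR *P* of 0.00843, an adjusted *P* of 0.295 and an exact two-sided permutation *P* of 0.1. The last is the smallest that 3 mice against 3 can give. *Sox9* was past the thresholds in 16 of 17 fits, including those without control 3 (Log2FC -0.35) and with GC content corrected (-0.43). The exception left out control 1 and *AP1AR-DT* OE A together, where the Log2FC was -0.36 and *P* was above 0.05. In that fit *Aqp4* was past the thresholds, 1 of the 10, beside 9.17% of all genes.

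*Aqp4* (ENSMUSG00000024411, minus strand of chromosome 18) encodes the water channel of the astrocyte endfeet that line vessels and the ventricle wall. The controls were at 125, 130.0 and 238 normalized CPM, and the *AP1AR-DT* OE mice at 113, 102 and 110.0. Control 3 was thus far above the other 5 mice, while controls 1 and 2 lay only a little above the highest *AP1AR-DT* OE mouse. The means were 164 ± 64.1 (SD, 3 mice) and 109 ± 5.63 (SD, 3 mice). The ratio was 0.661 (95% interval 0.442 to 0.989), with an edgeR *P* of 0.0456, an adjusted *P* of 0.323 and an exact permutation *P* of 0.1. Without control 3, the library highest for choroid plexus, ependymal and oligodendrocyte markers, the Log2FC was -0.22 (edgeR adjusted *P* = 0.406), and 1 of the 10 genes (*Sox9*) was past the thresholds beside 10.8% of all genes. The Log2FC was -0.63, -0.56 and -0.59 without *AP1AR-DT* OE A, B and C, with the unadjusted *P* above 0.05 each time. With GC content corrected it was -0.35 (edgeR adjusted *P* = 0.656). limma-voom (-0.53) and the correction for transcript length (-0.54) also left *Aqp4* outside the thresholds, beside 12.6% and 11.9% of all genes inside them.

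*S100b* and *Aldh1l1* varied little within each group. *S100b* (ENSMUSG00000033208, chr10:76253853-76261159, plus strand) encodes a calcium-binding protein that astrocytes also secrete. It was at 185, 181 and 188 normalized CPM in controls and at 166, 158 and 158 in *AP1AR-DT* OE mice. The spread within either group was small beside the step between them, with coefficients of variation of 2.12% and 2.72%. The ratio was 0.870 (95% interval 0.770 to 0.985), with an edgeR *P* of 0.0322, an adjusted *P* of 0.309 and an exact permutation *P* of 0.1. The Log2FC of -0.20 was inside the limit of 0.32. The unadjusted *P* was under 0.05 in 9 of 10 fits of all 6 mice, DESeq2 being the exception, and in 0 of the 6 fits that left out 1 mouse. Within its span *S100b* overlaps *Dip2a*, which lies on the other strand and had 2193 to 3835 counts, and no use of strand in counting is given in the sources used here.

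*Aldh1l1* (ENSMUSG00000030088, chr6:90486427-90600203, plus strand) encodes a folate enzyme used to mark astrocytes across brain regions. Its levels were 44.8, 44.9 and 43.3 normalized CPM in controls and 42.8, 43.8 and 41.7 in *AP1AR-DT* OE mice. The groups overlapped, and the highest mouse was 1.08 times the lowest. The Log2FC was -0.05, with an edgeR adjusted *P* of 0.797 and an exact permutation *P* of 0.2. Its 95% interval, -0.25 to 0.15, was the narrowest but for that of *S100b*. With GC content corrected the Log2FC was -0.18 (edgeR adjusted *P* = 0.555). Of its 4076 stretches of 100 bases, 244 (5.99%) are shared with the antisense gene *Gm15756*. Reads from those stretches could be split, though *Gm15756* had only 6 counts in *AP1AR-DT* OE A and 0 in every other library.

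*Gja1* (ENSMUSG00000050953, chr10:56377330-56402513, plus strand) encodes connexin 43, the main gap junction protein of astrocytes. It was at 414, 371 and 429 normalized CPM in controls and at 364, 395 and 379 in *AP1AR-DT* OE mice. Control 2 lay within the range of the *AP1AR-DT* OE mice. The Log2FC was -0.09 (95% interval -0.31 to 0.12), with an exact permutation *P* of 0.3, and it was 0.13 with GC content corrected (edgeR adjusted *P* = 0.692). Relative to *Gjb6*, the connexin 30 gene of the same cells, *Gja1* was at 2.43 to 2.66 per length in controls and at 2.47 to 2.90 in *AP1AR-DT* OE mice, so the pair kept a similar ratio in all 6 mice.

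**Figure D3:**
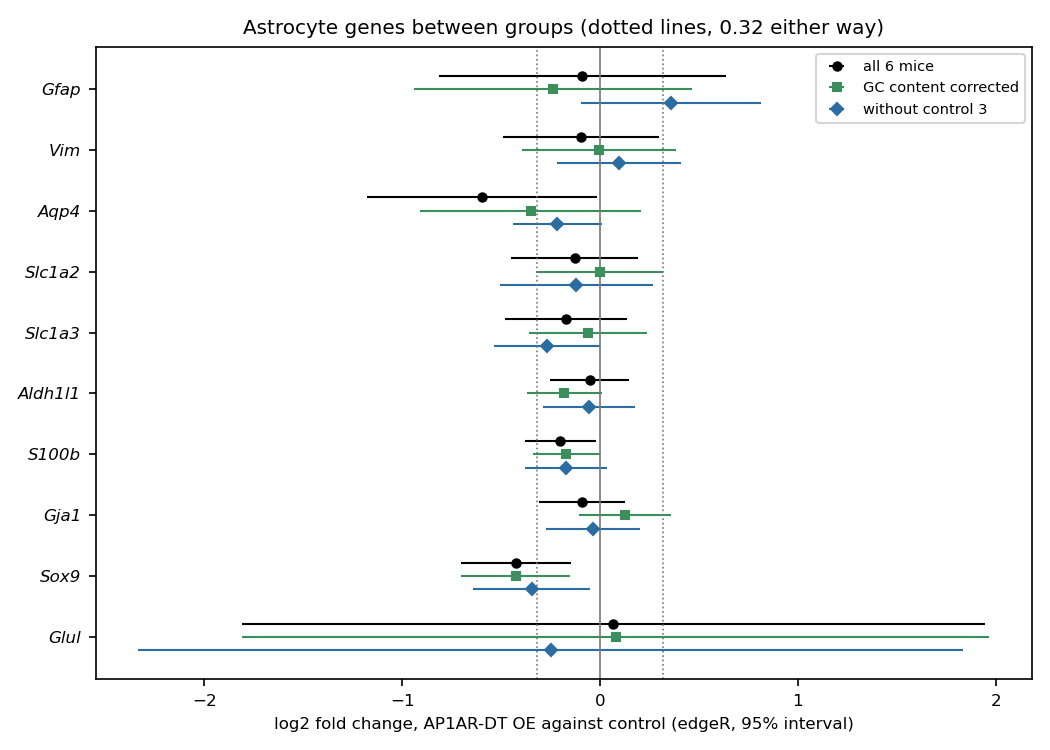
Log2FC of the 10 astrocyte genes (*AP1AR-DT* OE against control, edgeR) with 95% intervals, from all 6 mice (circles), with GC content corrected (squares) and without control 3 (diamonds); dotted lines mark 0.32 in either direction. The interval of *Sox9* lies below 0 in all 3 fits, that of *Aqp4* reaches past 0 once GC content is corrected or control 3 is left out, and that of *Glul* spans -1.81 to 1.95 with all mice.

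Glutamate handling was covered by the transporters *Slc1a2* (GLT-1) and *Slc1a3* (GLAST), which take glutamate up, and by *Glul*, glutamine synthetase, which turns it into glutamine. *Slc1a2* (ENSMUSG00000005089, chr2:102658659-102790784, plus strand) was at 3002, 2188 and 2576 normalized CPM in controls and at 2469, 2329.7 and 2304 in *AP1AR-DT* OE mice. The controls spread around the *AP1AR-DT* OE mice, and the Log2FC was -0.13 (95% interval -0.45 to 0.19; exact permutation *P* = 0.6). With transcript length corrected it was 0.034, and with GC content corrected -0.0022. *Slc1a3* (ENSMUSG00000005360, chr15:8634124-8710764, minus strand) was at 1222, 1079 and 903 in controls and at 886, 956 and 999 in *AP1AR-DT* OE mice. Control 3, the highest mouse for *Aqp4* and *Gfap*, was the lowest control for *Slc1a3*. The Log2FC was -0.17 (95% interval -0.48 to 0.13; exact permutation *P* = 0.3). Per length, *Slc1a2* was at 0.776 to 1.09 times *Slc1a3* in controls and at 0.882 to 1.07 times in *AP1AR-DT* OE mice.

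*Glul* (ENSMUSG00000026473, chr1:153899944-153909723, plus strand) split the mice without regard to group. It was at 1527, 300.4 and 348 normalized CPM in controls 1, 2 and 3 and at 1541, 384 and 354 in *AP1AR-DT* OE mice A, B and C. Control 1 and *AP1AR-DT* OE A were alike and 4.42 times the mean of the other 4 mice. The Log2FC of 0.07 had a 95% interval of -1.81 to 1.95 and the exact permutation *P* was 0.5, so that a 3-fold difference in either direction lay within the interval. It was 1.23 without control 1, -0.97 without *AP1AR-DT* OE A, -0.29 without control 2 and -0.25 without control 3. No other astrocyte gene of the 10 shared this split. *Slc1a2* was 0.36 above the mean of the other 4 mice on the log2 scale in control 1 and 0.07 above it in *AP1AR-DT* OE A, while *Vim* was at -0.31 and -0.33. The 2 mice with high *Glul* were the 2 with the highest striatal neuron markers, and the part of tissue composition in the split was not tested. *Glul* shares 74 of its 2693 stretches of 100 bases (2.75%) with *Glns-ps1* and *Teddm2*.

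The promoters of *Slc1a3* and *Glul* are shown because the one is among the 2 with a STAT motif and the other belongs to the gene that split the mice. RefSeq windows (GRCm38.p6) of 250 bases before to 50 bases after a start site were found for 8 of the 10 genes, all but *Aqp4* and *Sox9*. Capitals mark the STAT motif TTCNNNGAA, which reads the same on both strands, in *Slc1a3* (chr15:8710758-8711057, minus strand), and the NFI motif TTGGC or its reverse complement in *Glul* (chr1:153899679-153899978, plus strand).
*Slc1a3*: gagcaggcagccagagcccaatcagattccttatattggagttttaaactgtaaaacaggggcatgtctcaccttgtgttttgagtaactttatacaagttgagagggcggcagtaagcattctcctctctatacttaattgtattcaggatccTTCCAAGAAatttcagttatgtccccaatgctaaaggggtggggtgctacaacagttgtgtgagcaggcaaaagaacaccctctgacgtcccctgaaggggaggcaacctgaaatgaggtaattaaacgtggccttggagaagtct
*Glul*: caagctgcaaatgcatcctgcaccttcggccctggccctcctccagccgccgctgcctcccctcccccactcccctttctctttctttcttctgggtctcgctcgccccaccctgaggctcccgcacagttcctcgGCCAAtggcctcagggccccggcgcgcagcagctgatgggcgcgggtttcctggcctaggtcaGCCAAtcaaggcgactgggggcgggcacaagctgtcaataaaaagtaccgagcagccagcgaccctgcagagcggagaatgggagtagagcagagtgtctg
The match in *Slc1a3* begins 96 bases before the start site, and those in *Glul* begin 114 and 51 bases before it.

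The reactivity genes encode the intermediate filaments of astrocytes. *Gfap* (ENSMUSG00000020932, chr11:102887336-102900912, minus strand) encodes the glial fibrillary acidic protein, the usual histological mark of reactive astrocytes. It was at 205, 189 and 402 normalized CPM in controls and at 297, 258 and 193 in *AP1AR-DT* OE mice. Control 3 was the highest mouse and control 2 the lowest, so the *AP1AR-DT* OE mice lay within the range of the controls. The means were 265 ± 119 (SD, 3 mice) and 249 ± 52.3 (SD, 3 mice), and the exact permutation *P* was 1.0. The 95% interval of the Log2FC, -0.82 to 0.64, leaves room for a gain of up to 1.56-fold. Leaving out control 3 gave a Log2FC of 0.36 (edgeR adjusted *P* = 0.45), and leaving out *AP1AR-DT* OE C gave 0.08. With GC content corrected the Log2FC of *Gfap* was -0.24 (edgeR adjusted *P* = 0.815).

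*Vim* (ENSMUSG00000026728, chr2:13573927-13582826, plus strand) encodes vimentin, which astrocytes share with endothelial, ependymal and meningeal cells. Its levels were 39.8, 45.0 and 59.2 normalized CPM in controls and 39.3, 47.3 and 48.2 in *AP1AR-DT* OE mice. Control 3 was again the highest mouse, and the groups overlapped. The exact permutation *P* was 0.8, the 95% interval of the Log2FC ran from -0.49 to 0.30, and without control 3 the Log2FC was 0.095 (edgeR adjusted *P* = 0.773). *Gfap* stood at 4.63 to 7.51 times *Vim* per length in controls and at 4.43 to 8.34 times in *AP1AR-DT* OE mice. Relative to *Aldh1l1*, *Gfap* stood at 6.61 to 14.7 times in controls and at 7.31 to 10.9 times in *AP1AR-DT* OE mice.

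The promoters of this pair differ in the motifs they hold. The *Gfap* window (chr11:102897151-102897450, minus strand) holds a STAT motif, in capitals, whose first base lies 2 bases before the RefSeq start site, and no NFI motif. The *Vim* window (chr2:13574061-13574360, plus strand) holds NFI motifs, in capitals, that begin 93 and 16 bases before the start, and no STAT motif.
*Gfap*: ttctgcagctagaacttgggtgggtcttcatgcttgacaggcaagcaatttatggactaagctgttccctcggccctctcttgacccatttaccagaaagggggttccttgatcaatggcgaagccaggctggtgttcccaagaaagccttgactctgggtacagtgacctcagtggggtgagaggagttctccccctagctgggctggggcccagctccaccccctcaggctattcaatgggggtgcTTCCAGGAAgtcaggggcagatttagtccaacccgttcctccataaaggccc
*Vim*: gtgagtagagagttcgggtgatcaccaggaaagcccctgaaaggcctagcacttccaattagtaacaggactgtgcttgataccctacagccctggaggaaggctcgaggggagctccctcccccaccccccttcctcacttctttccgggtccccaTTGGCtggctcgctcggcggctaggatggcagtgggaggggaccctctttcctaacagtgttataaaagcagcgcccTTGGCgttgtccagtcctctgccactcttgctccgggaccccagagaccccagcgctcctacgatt
Over the 8 windows, 2 held a STAT motif, 4 an NFI motif, 6 an E box (CANNTG) and 0 the SOX motif ACAAAG. Of the 32851 promoter windows in the same table, 8.30% held a STAT motif, 46.7% an NFI motif, 72.3% an E box and 18.7% the SOX motif, on either strand. The NFI motif in *Slc1a2* overlaps an E box. These are matches of letters in a window.

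GC content moved with the fold change over all genes and bears on the astrocyte genes that have little or much of it. From the decile of genes with the lowest GC content (17.1% to 41.1%) to the decile with the highest (57.7% to 79.1%), the median Log2FC went from -0.30 to 0.22. *Aqp4* (41.4% GC) and *Gja1* (42.2%) lay in the second decile, whose median was -0.21. *Gfap* (55.5%) lay in the ninth, with a median of 0.16, and *Aldh1l1* (54.4%) in the eighth, with a median of 0.12. *Sox9* (49.3%), *Glul* (49.2%) and *S100b* (48.3%) lay in the fifth, whose median was -0.03. *Sox9* and *S100b* were thus below their own decile by nearly as much as below 0, and *Gja1* was above its own. *Gfap* and *Aldh1l1* were further below their own decile than below 0. With GC content corrected, 1 of the 10 (*Sox9*) was past the thresholds, beside 7.19% of all genes.

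**Figure D4:**
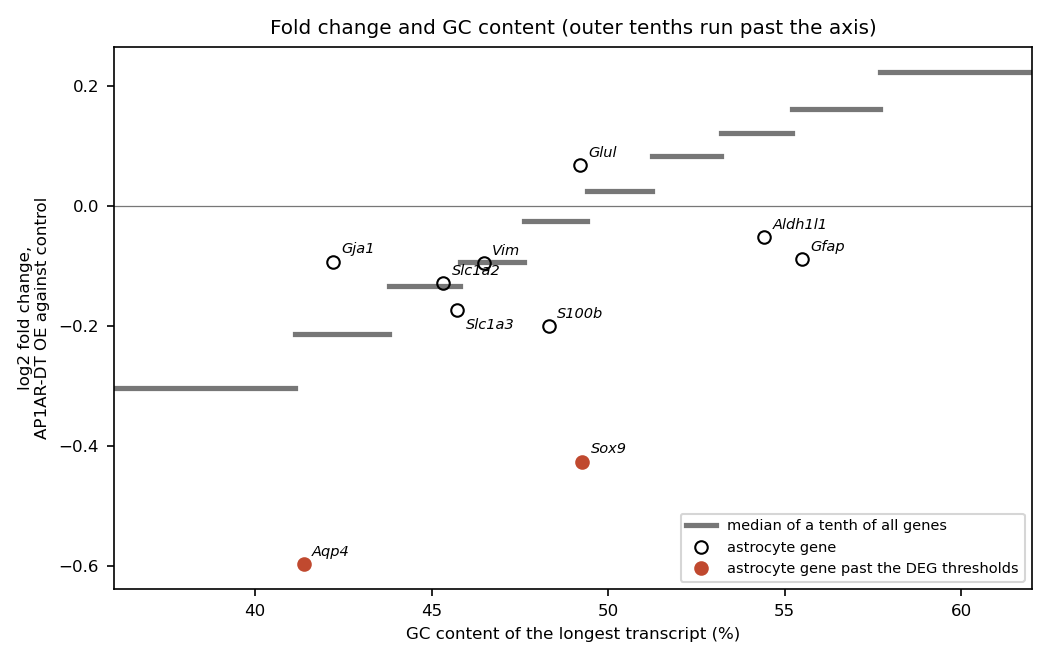
Log2FC of the 10 astrocyte genes (*AP1AR-DT* OE against control, edgeR; filled where past the DEG thresholds) against the percentage of G and C in the longest transcript, with the median Log2FC of each decile of all genes as a grey bar. The bars climb from -0.30 to 0.22. *Aqp4* and *Sox9* lie furthest under theirs, *Gfap*, *S100b* and *Aldh1l1* also lie under theirs, and *Gja1* lies over its bar.

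The genes with the nearest pattern over the 6 mice were found by the root mean square difference of centred log2 normalized CPM, over 14381 genes. For *Gfap* they were *Rnf112*, *Nfam1*, *Sntb2*, *Pcsk2* and *Grin2a*, which differed from it by 0.07 to 0.11. For *Vim* they were *Arid5b*, *Manba*, *Notch2*, *Lrp10* and *Itpripl2*, with differences of 0.04 to 0.06. For the mean of the other 8 astrocyte genes they were *Ap3s1-ps1*, *Papss2*, *Gatc*, *Cnot7* and *Gstm5*, at 0.05 to 0.06. With *Glul* left out of that mean, a choice made after its split was seen, they were *Exoc4*, *Fam122a*, *Hsd17b12*, *Rab6a* and *1500004A13Rik*, at 0.02 to 0.03. For *Glul* itself, also looked at after its values were seen, the nearest was *Asb1* at 0.41, so no gene came as close to it as for the other patterns.

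Beyond the 10 genes, 130 further astrocyte genes were listed and 124 of them tested. The 2 homeostatic genes with the smallest *P*, by which they were picked, were both lower. *Kcnj10*, the inward rectifier potassium channel of astrocytes, was at 507, 494 and 640.0 normalized CPM in controls and at 362, 402 and 417 in *AP1AR-DT* OE mice, and *Slc4a4*, a sodium bicarbonate cotransporter, at 309.8, 362 and 348 and at 255, 226 and 274. In both genes every *AP1AR-DT* OE mouse was below every control mouse. The groups did not overlap for 14 of the 42 other homeostatic genes, beside 22.4% of all genes tested. The Log2FC of *Kcnj10* and *Slc4a4* were -0.47 ± 0.13 (SE) and -0.44 ± 0.11 (SE), each with an edgeR adjusted *P* of 0.295. *Kcnj10* was past the thresholds in 16 of 16 alternative fits and *Slc4a4* in 15 of 16.

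Over the 124 genes, 15 were lower and 6 higher past the DEG thresholds, 16.9% in all beside 12.2% of all genes tested, with a median Log2FC of -0.04. Leaving out control 3 gave 5 lower and 6 higher genes (8.87%, beside 10.8% of all genes). Leaving out *AP1AR-DT* OE A gave 8 lower and 3 higher (8.8%, beside 1620 of 22543 genes). Without *AP1AR-DT* OE B, 10 were lower and 4 higher (11.2%, beside 1430 of 22582 genes). With GC content corrected, 6 were lower and 3 higher (7.26%, beside 7.19% of all genes). Without control 3 the share was under that of all genes, and with GC content corrected it was close to it. Without *AP1AR-DT* OE A or B it was above it. As the share moved between fits, it is not a result about the list.

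The counts of single lists that follow stand beside 12.2% of all genes tested past the same thresholds, 7.15% lower and 5.1% higher. With so few genes per list they are not results about the lists. Of 42 other homeostatic genes, 5 were lower (*Slc4a4*, *Kcnj10*, the zinc transporter gene *Slc39a12*, *Acsl6* and *Pla2g7*) and 2 higher (*Hes5*, a Notch target, and *Htra1*, a secreted protease). Of 8 pan-reactive genes tested, 2 were lower, *Cp* (Log2FC -0.60) and *Cd44* (-0.72), and 0 higher. The pan-reactive gene *Lcn2*, a strong mark of reactive astrocytes, had 0 counts in all 6 libraries, and *Steap4* and *Timp1* had at most 39 and 12. Of 12 genes named A1, after reactive astrocytes in inflammation, 2 were higher, the MHC class I genes *H2-D1* (0.46) and *H2-T23* (0.40), and 2 lower, the complement gene *C3* (-1.30) and *Amigo2* (-0.55). Of 10 genes tested of those named A2, after ischaemia, *Cd109* was lower (-1.43) and *S100a10* higher (0.48). The adjusted *P* in edgeR with all 6 mice was at least 0.295 for all genes of these 4 lists, while DESeq2 gave *Cd109* an adjusted *P* of 0.0198. *Cd109* was past the thresholds in 16 of 16 alternative fits, *H2-D1* in 15, *Slc39a12* in 14, *C3* in 13, *S100a10* in 12, *Cp* and *Pla2g7* in 11, *Cd44*, *Hes5* and *Acsl6* in 10, *H2-T23* in 9, *Htra1* in 8 and *Amigo2* in 6. *Amigo2* was at -0.34 without control 3 and *Hes5* at 0.22 with GC content corrected. *C3* was at only 0.612 to 3.80 normalized CPM and *Cd109* at 1.53 to 6.25.

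Of 10 genes of the glutamate-glutamine cycle, 0 were past the thresholds, and the smallest *P* belonged to *Got1* (Log2FC 0.20) and *Slc7a11* (-0.21). Of 9 genes of the endfoot dystrophin complex, *Kcnj10* and *Dmd*, the dystrophin gene (-0.33), were lower, and *Dmd* was at -0.09 with GC content corrected. Of 7 connexins, *Gjc3* was lower (-0.61), a connexin of oligodendrocytes whose level was highest in control 3, and *Gjb1* followed (-0.36, outside the thresholds). Of 8 other intermediate filament genes, 0 were past the thresholds, with *Des* at 0.64 and *Synm* at -0.36. Of 15 gliogenic transcription factors, *Zbtb20* (-0.60), *Rfx4* (-0.36) and *Nfia* (-0.36) were lower and *Hes5* higher (0.51). *Zbtb20* was past the thresholds in 15 of 16 alternative fits, *Rfx4* in 13 and *Nfia* in 10.

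Of 11 genes of the STAT3 pathway tested, which drives *Gfap* in reactive astrocytes, 1 was past the thresholds. This was *Lifr*, the receptor of leukemia inhibitory factor, at 5.87, 6.87 and 6.47 normalized CPM in controls and at 27.5, 26.4 and 30.2 in *AP1AR-DT* OE mice. The groups were far apart, with a Log2FC of 2.13 ± 0.13 (SE) and an edgeR adjusted *P* of 0.0116, which no other astrocyte gene listed reached under 0.05. Its adjusted *P* was under 0.05 in 14 of 16 alternative fits and 0.109 at most. The next smallest *P* in the pathway was that of *Osmr*, the oncostatin M receptor (Log2FC 0.45; edgeR adjusted *P* = 0.386). *Gfap*, in the same mice, had overlapping groups, and a link of *Lifr* to *Gfap* was not tested.

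**Figure D5:**
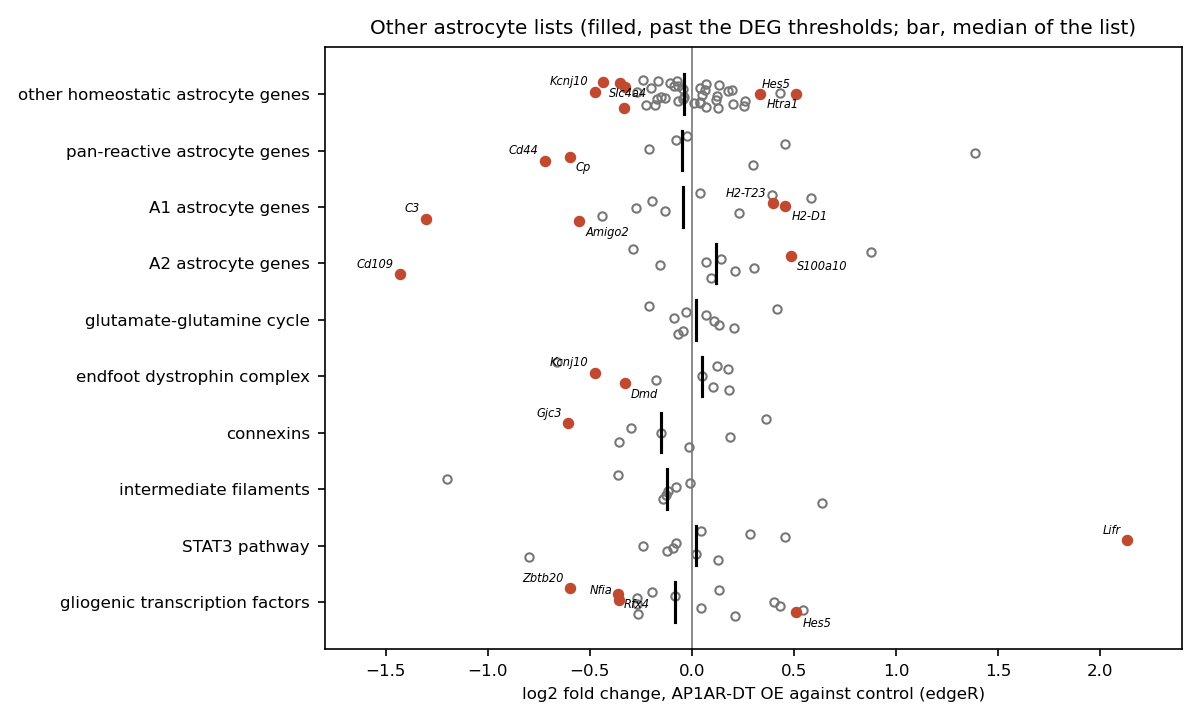
Log2FC (*AP1AR-DT* OE against control, edgeR) of the tested genes of 10 further astrocyte lists, 1 point per gene, filled and mostly named where past the DEG thresholds, with a black bar at the median of each list. Points lie on both sides of 0 in every list, the medians run from -0.15 for connexins to 0.12 for A2 genes, and *Lifr* at 2.13 stands alone.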

How the data were processed

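RNA-seq counts of brain from 3 *AP1AR-DT* OE and 3 control mice were analysed. The authors deposited whole-number counts per gene without normalization. Per their text, reads were checked with FastQC, mapped to GRCm38 with Bowtie2, which does not split reads at introns, and turned into counts from StringTie coverage of GENCODE genes, with no versions given. The submitters' processing notes instead name mm9, TopHat2 2.0.4, SAMtools, HTSeq, Cuffdiff and edgeR 2.6.12, so the build and counter behind the table are uncertain. Its comparison columns (mean, fold change, error, statistic, P-values) were not used. Control columns matched their mice by number. *AP1AR-DT* OE columns carry column numbers only, and were called A, B and C. No library was a copy of another, as chi-square per gene was 44.4 or more for every pair.

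Genes were tested with edgeR 4.0.16 in R 4.3.3 (filterByExpr, TMM factors, quasi-likelihood F-test, two-sided, Benjamini-Hochberg over all 21844 genes). Normalized CPM used the TMM factors, with 0.5 added for log2 values. The alternatives were DESeq2 1.42.0, its size factors, limma-voom (limma 3.58.1), totals without TMM factors, scaling without mitochondrial genes, no filter or at least 10 counts in every library, GC content or transcript length as natural splines with 5 degrees of freedom, each library left out, and, chosen after the *Glul* values were seen, control 1 and *AP1AR-DT* OE A left out together. Coordinates, lengths and GC content came from GENCODE vM21 (GRCm38). The models were tested on simulated counts. Python 3.11.15 was used for tables. The genes and lists were chosen with earlier results of these data known. Named were the 10 genes, the 2 genes of each further list with the smallest *P*, any with an adjusted *P* under 0.05, and the 5 nearest patterns. Other genes past the thresholds were named after their values were seen.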

Additional observations from a re-analysis of the deposited data

How the results depend on the processing

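Of 10 astrocyte genes, 2 were past the DEG thresholds in edgeR, and 1 was under limma-voom, with GC content corrected and with transcript length corrected (*Sox9* each time), and 1 (*Aqp4*) without control 1 and *AP1AR-DT* OE A together. Leaving out 1 mouse gave 1 to 2, with *Sox9* among them each time. Over all genes the count was 2675, with 1570 after the GC correction and 1430 to 3508 when 1 mouse was left out. Over the further astrocyte lists it was 21, with 9 after the GC correction, 13 after the length correction and 11 to 21 when 1 mouse was left out. An adjusted *P* under 0.05 was given to 6 of all genes in edgeR and to 308 in DESeq2.

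The Log2FC of *Gja1* turned to 0.13 with GC content corrected and that of *Slc1a2* to 0.034 with length corrected. With 1 mouse left out it ran from -0.27 to 0.36 for *Gfap*, from -0.21 to 0.095 for *Vim* and from -0.97 to 1.23 for *Glul*. *Sox9*, *Aqp4*, *S100b*, *Slc1a3* and *Aldh1l1* were below 0 in all 17 fits. The cause of these differences was not tested. No paired analysis was possible because the groups share the single mouse number 3 and the *AP1AR-DT* OE columns carry no mouse number. With 3 mice per group the intervals of *Gfap* and *Glul* are too wide to show moderate differences.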

Other observations

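The split of *Glul* was looked for in other genes after it had been seen. Of 14391 genes with a mean log2 normalized CPM above 2, 4 were higher by more than 1 on the log2 scale in both control 1 and *AP1AR-DT* OE A than in every other mouse, and *Glul* had the widest gap (1.99). The others were *Asb1* (62.1 and 70.7 normalized CPM in this pair, 16.8 to 27.0 in the other 4 mice), *Tsc22d2* (46.9 and 40.2, beside 16.3 to 19.4) and *Adamts3* (16.1 and 16.1, beside 3.02 to 7.66). The reverse pattern was held by 3 genes. *Gas7* was at 9.93 and 15.6 normalized CPM in the pair and at 196 to 349 in the other mice, *Cmtr2* at 0.787 and 0.434 beside 8.92 to 17.1, and *Dctd* at 2.999 and 2.90 beside 7.49 to 11.2. None of these 6 genes is among the astrocyte genes listed.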
